A study of Homo sapiens with 6 samples.

Results

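The Notch pathway was read here through transcripts of 10 genes. These were the receptors NOTCH1, NOTCH2 and NOTCH3, the ligands JAG1, JAG2 and DLL1, the DNA-binding factor RBPJ, and the target genes HES1, HES4 and HEY1. They were taken by their symbols from 38648 listed genes, and 9 of them had enough counts to be tested. The set was chosen by symbol with earlier results of this comparison known, the HES4 difference among them, so the PRDM16 against NC values of the 10 are given as a description. Counts of those past a threshold of the fit over all genes stand beside the share of all genes and support nothing. The cells were HPC, a wild-type human podocyte line in RPMI-1640 with serum and high glucose. NC lentivirus, a negative control, was given to 3 samples, and lentivirus made to overexpress PRDM16 to the other 3, with 24 h in the titles. Both groups share the high glucose and a lentivirus, and no sample in normal glucose was analysed here. The sources used here name neither the promoter nor the dose of the lentivirus. The labels do not say whether libraries of a group came from separate cultures, so their spread may be technical.

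A Notch receptor is cut first in the secretory pathway, then at the cell surface once a Jagged or Delta-like ligand on a neighbouring cell pulls on it, and last within the membrane by gamma-secretase. The freed intracellular domain enters the nucleus and joins RBPJ and a Mastermind coactivator on DNA, where genes of the HES and HEY repressor families are its best known targets. The pathway patterns the developing nephron, is low in the mature podocyte, and has been found active again in podocytes of injured and diabetic glomeruli.

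HES4 and HES1 are shown by sequence because they stood far apart in level although the same stretch precedes both. The preferred RBPJ motif, GTGGGAA, was searched on both strands in the 250 bases before each RefSeq start (GRCh38.p14). Below are 30 bases around the match in each, in the direction of transcription, with the motif in capitals. The HES4 stretch lies at chr1:1000157-1000186 on the minus strand, within an exon that the tables list for a longer HES4 transcript, and the HES1 stretch at chr3:194136051-194136080 on the plus strand, before the listed gene.

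HES4: gctggggcgagtGTGGGAAagaatgcggag

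HES1: ctgaaagttactGTGGGAAagaaagtttgg

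The motif began 77 bases before the HES4 start and 85 bases before the HES1 start. The longest run that the 2 windows shared was 12 bases, tGTGGGAAagaa. Of the 8 genes among the 10 that had a start window, 3 held the motif, which were HES1, HES4 and RBPJ, the last in 1 of its 5 windows. It was also found at HES5, HEY2 and HEYL among 7 further HES and HEY genes. Among all 35116 windows of this length 5.43% held it, and 6.69% of 27305 genes had it in at least 1 window. A match of letters describes the window and does not show that RBPJ was bound there.

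By level per length, the set had a wide order. FPKM is the count per kilobase of gene length and per 1000000 counted reads, as deposited. Means over all 6 libraries were 68.0 ± 14.4 FPKM for HES4 (SD, n = 6), 40.1 ± 3.57 for NOTCH2, 17.8 ± 3.48 for RBPJ, 11.9 ± 1.20 for NOTCH1, 10.1 ± 1.07 for JAG2 and 8.54 ± 0.502 for JAG1. HES1 followed at 1.66 ± 0.233 FPKM, HEY1 at 0.673 ± 0.114 and NOTCH3 at 0.373 ± 0.0659. The order of NOTCH1 above JAG2 and of JAG2 above JAG1 held in 5 of 6 libraries each and their ranges overlapped. Each of the other neighbours down to NOTCH3 kept its order in all 6 libraries, with ranges that did not overlap. HES4 lay above 94.0% of the tested genes by mean FPKM, and NOTCH3 above 13.2%.

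**Figure D1:**
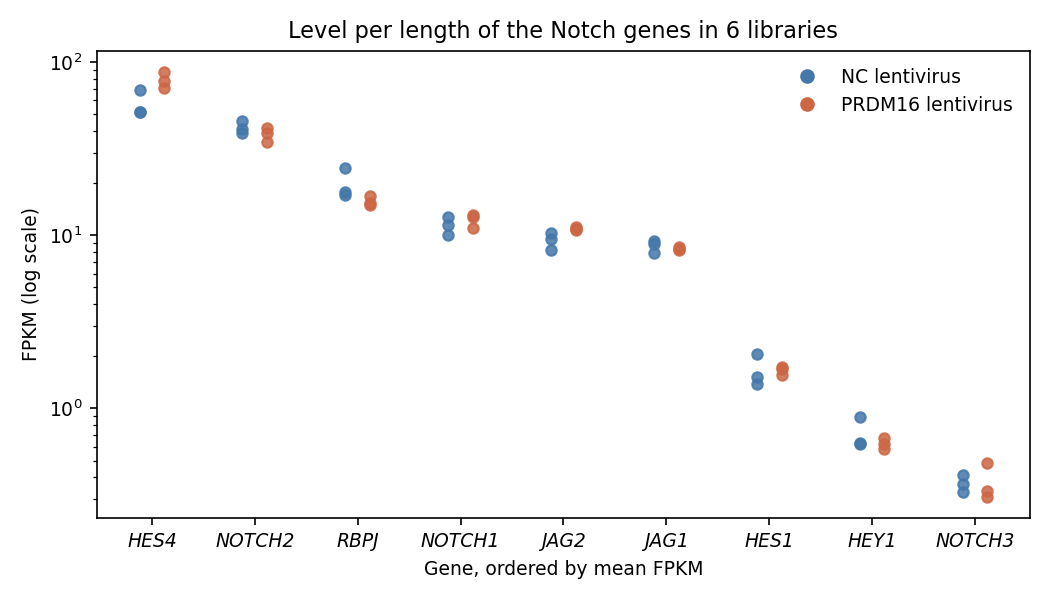
Level per length in FPKM (log axis) of the 9 genes that passed the count filter, with 1 point per library, NC in blue and PRDM16 in orange. HES4 leads at a mean of 68.0 FPKM, and HES1, HEY1 and NOTCH3 lie below 3 FPKM in every library.

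DLL1, a Delta-like ligand, was at the floor. At its place on chromosome 6 it had 0 counts in 5 libraries and 1 count in PRDM16 library 3. Its second listing, on a scaffold, had 1, 6 and 2 counts with NC and 0, 3 and 0 with PRDM16. No fold is given for DLL1, and neither listing passed the filter on low counts, which needs about 10 counts in enough libraries. For scale, 3 counts stand for 0.0717 to 0.156 CPM, or counts per 1000000 scaled by TMM factors, in these libraries. The other 9 genes were tested.

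NOTCH2 was the main receptor transcript. NOTCH2 made up 74.5% to 79.7% of the summed FPKM of the 3 receptors, NOTCH1 19.5% to 24.8%, and NOTCH3 reached at most 0.486 FPKM. NOTCH2 stood at 448, 463 and 539 CPM in NC libraries 1, 2 and 3 and at 428, 474 and 484 in PRDM16 libraries 1, 2 and 3. NC library 3 was the highest and PRDM16 library 1 the lowest, with the groups overlapping, and the log2 fold change was -0.07 ± 0.12 (SE). NOTCH1 stood at 119, 92.2 and 111 CPM with NC and at 110.5, 128 and 121 with PRDM16 (log2 fold change 0.16 ± 0.12). Its lowest value was in NC library 2, without which the log2 fold change was 0.07, and the groups overlapped. NOTCH3, a receptor best known from vessel wall cells, had 80, 88 and 60 counts with NC and 85, 83 and 111 with PRDM16, or 2.65 to 4.43 CPM over all libraries (0.08 ± 0.21). The sign of NOTCH2 turned in 4 of 15 other fits (0.02 without NC library 3), that of NOTCH3 in 3 (-0.16 without PRDM16 library 1) and that of NOTCH1 in 1.

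NOTCH2 has near-identical partial copies, the NOTCH2NL genes, and how reads that match both were assigned is not given. NOTCH2NLA, NOTCH2NLB and NOTCH2NLC together held 7.45 to 11.6 counts for every 100 of NOTCH2. NOTCH2NLA went from 14.3 ± 1.19 to 16.0 ± 1.06 CPM (SD, n = 3), while NOTCH2NLB went from 15.4 ± 3.66 to 11.8 ± 1.49 and NOTCH2NLC from 15.2 ± 3.43 to 12.9 ± 0.891. None of the 3 passed in edgeR (adjusted p = 0.463, 0.298 and 0.396), and their counts, like that of NOTCH2, are uncertain.

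Of the ligands, JAG1 and JAG2 had like levels per length, and their fold changes differed with all libraries included. JAG1, a ligand linked to kidney fibrosis, stood at 54.0, 50.9 and 47.5 CPM with NC and at 51.9, 50.5 and 49.8 with PRDM16. The PRDM16 libraries lay inside the range of the NC libraries, and the log2 fold change was -0.0027 ± 0.11 (SE), with a positive sign in 9 of 15 other fits. JAG2 stood at 57.8, 45.9 and 55.4 CPM with NC and at 67.4, 64.3 and 61.8 with PRDM16. The groups did not overlap, with PRDM16 the higher and the nearest values in NC library 1 and PRDM16 library 3, with a log2 fold change of 0.28 ± 0.12. JAG2 made up 51.6% ± 3.24 of the JAG1 and JAG2 FPKM with NC (SD, n = 3) and 56.6% ± 0.562 with PRDM16. Without NC library 2 the log2 fold change was 0.19 for JAG2 and 0.0046 for JAG1. In a fit described below that removed a trend on gene length and base content, JAG2 was at 0.10 and JAG1 at 0.04. With NC library 2 also left out of that fit, JAG2 was at 0.05 and JAG1 at 0.06.

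RBPJ, the factor that carries the receptor's signal to DNA and holds targets silent without it, stood at 118, 166 and 126 CPM with NC and at 114, 108 and 117 with PRDM16. The groups did not overlap, with PRDM16 the lower by a narrow gap between PRDM16 library 3 and NC library 1, and NC library 2 stood far above the rest. The log2 fold change was -0.27 ± 0.12 (SE), and -0.11 without NC library 2.

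Among the targets, HES4 had the largest difference of the 9 genes. HES4 is a basic helix-loop-helix repressor close to HES1, with no direct counterpart in the mouse, and lies on chromosome 1 at 998962 to 1001052 (hg38, minus strand). It stood at 129, 94.3 and 99.8 CPM with NC and at 176, 141 and 147 with PRDM16. Each PRDM16 library was above the highest NC library, with library 1 the highest in each group. The log2 fold change was 0.52 ± 0.13 (SE), or 1.43-fold, and 5.14% of the tested genes had a larger one in size. HES4 had positive values in all 15 other fits, 0.42 to 0.66 when single libraries were left out. The lowest were 0.05 to 0.06, in the fits described below that removed a trend on gene length and base content.

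HES1, the classical target and a repressor of its own gene, had 73, 66 and 46 counts with NC and 55, 76 and 101 with PRDM16, which in CPM were 3.17, 2.29 and 2.21 against 2.86, 2.73 and 2.41. NC library 1 was the highest, the groups overlapped, and the log2 fold change was 0.06 ± 0.21 (SE), with a negative sign in 5 of 15 other fits and 0.23 without NC library 1. HEY1, a related repressor on chromosome 8, stood at 2.17, 1.49 and 1.58 CPM with NC and at 1.51, 1.72 and 1.53 with PRDM16, again with NC library 1 the highest and an overlap (-0.14 ± 0.24). Without NC library 1 the HEY1 value was 0.04, the 1 positive value in 15 other fits. The level of HES4 per length was 33.5, 33.8 and 37.1 times that of HES1 in the NC libraries. In the PRDM16 libraries it was 50.5, 42.3 and 49.9 times that of HES1. The HES1 side of this ratio rests on 46 to 101 counts per library. With the trend on gene length and base content removed, the log2 fold change was 0.06 for HES4 and -0.02 for HES1. HES4 made up 76.5% to 79.9% of the summed FPKM of all HES and HEY genes listed.

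**Figure D2:**
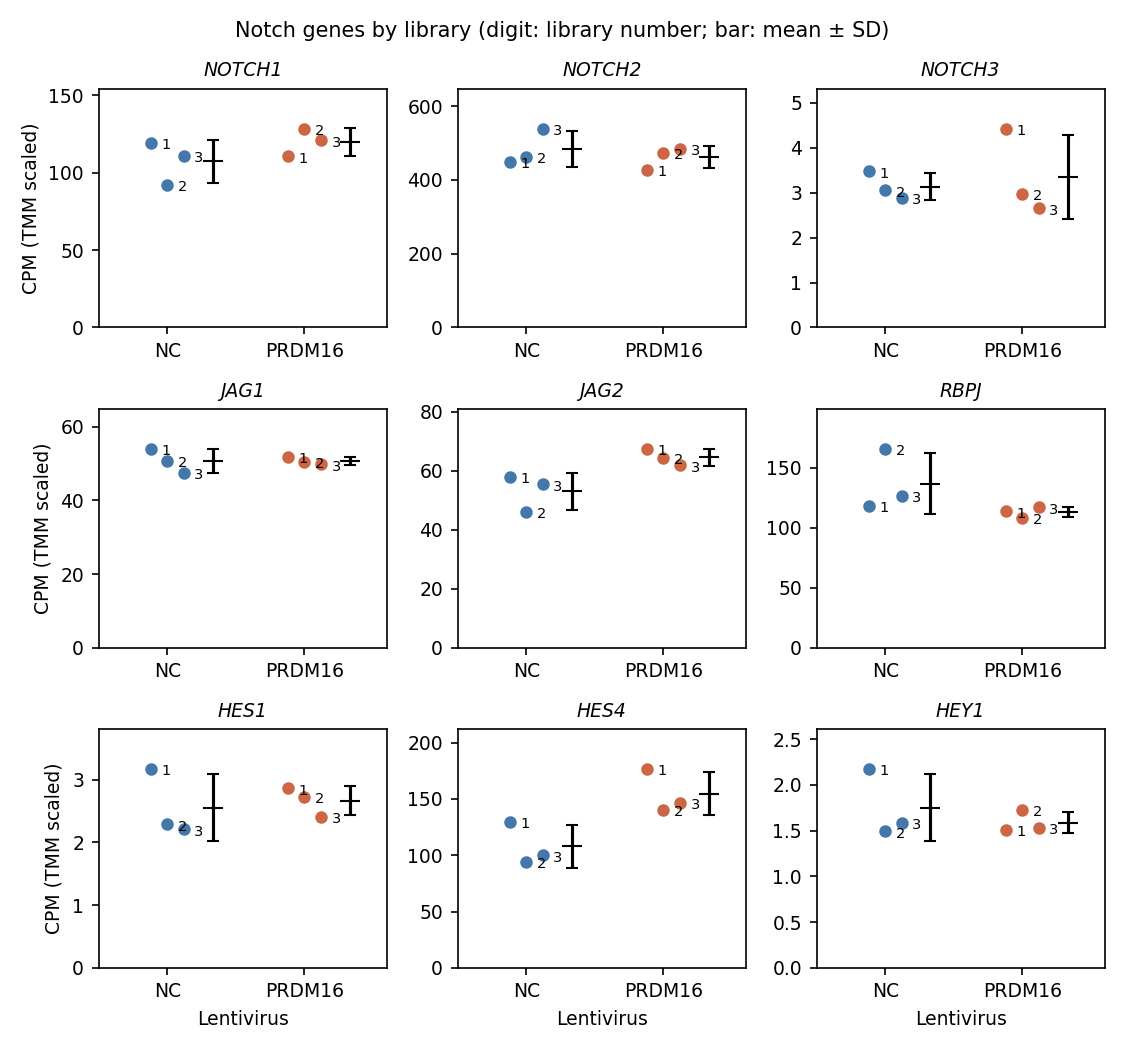
CPM (scaled by TMM factors) of each of the 9 genes in the 3 NC and 3 PRDM16 libraries, with the library number beside each point and the group mean ± SD as a bar to the right. The groups do not overlap in HES4, JAG2 and RBPJ, and RBPJ is at 166 CPM in NC library 2.

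The groups did not overlap in 3 of the 9 genes, with 2 higher (HES4, JAG2) and 1 lower (RBPJ) in the PRDM16 libraries. Over all 15381 genes tested this held for 21.0%, with 12.2% higher and 8.77% lower. By edgeR's quasi-likelihood test adjusted over all genes, 0 of the 9 passed, where 0.0650% of all genes did, and DESeq2 and limma-voom likewise called 0 of the 9. The 3 genes without overlap had an unadjusted p under 0.05, as did 16.0% of all genes, 9.23% higher and 6.76% lower (1419 against 1040 genes, and 1208 against 1369 with upper quartile factors). The count was 1 of the 9 without NC library 2, without PRDM16 library 1 or without PRDM16 library 2, where the share of all genes was 7.30%, 6.15% and 8.97%. It was 2 without PRDM16 library 3, where 16.5% of all genes were past it. HES4 was the 1 member that passed with no count filter and also without PRDM16 library 2, where its log2 fold change was 0.59. Since the comparison had chosen the set, nothing is read from these counts. The median log2 fold change was 0.06 over the 9 and -0.02 over all genes.

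The log2 fold changes of the 9 genes ran almost in the order of their GC content, the share of G and C bases in their transcripts. RBPJ, with the lowest GC content (41.6%), had the lowest value, and HES4, with the highest (74.2%, above 99.99% of the tested genes that had a value), had the highest. NOTCH1 and JAG2, at 64.1% and 64.0%, stood at 0.16 and 0.28, and NOTCH2, JAG1 and HES1, between 49.8% and 50.9%, at -0.07, -0.0027 and 0.06. Spearman's rho between GC content and log2 fold change was 0.983 over the 9 genes, 0.812 over the 9 and 60 listings of other pathway genes, and 0.639 over 13892 tested genes, and 0.610 and 0.441 for the last 2 sets without NC library 2. These points share the same 6 libraries, so no p is given. The 9 genes were also chosen with earlier results known, so nothing is read from their rho against that of all genes.

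Libraries differed along the same axis. The deviation of a library from the mean of all 6, gene by gene, had a rho with GC content of 0.149, -0.697 and -0.228 in NC libraries 1, 2 and 3 and of 0.489, 0.453 and 0.293 in PRDM16 libraries 1, 2 and 3. HES4 deviated by 0.01, -0.44 and -0.36 (log2) in the NC libraries and by 0.46, 0.13 and 0.20 in the PRDM16 libraries. RBPJ deviated by -0.07, 0.42 and 0.03 in the NC libraries and by -0.12, -0.19 and -0.08 in the PRDM16 libraries. With a trend on length and GC content removed from each library, the log2 fold change was 0.06 for HES4, 0.10 for JAG2, -0.06 for RBPJ, 0.02 for NOTCH1 and -0.14 for HEY1. Then 0 of the 9 had an unadjusted p under 0.05 in edgeR, beside 6.55% of all genes. Each PRDM16 library had a higher rho with GC content than each NC library. Removing the trend therefore also removes any group difference that follows GC content. What gave rise to the trend was not tested.

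**Figure D3:**
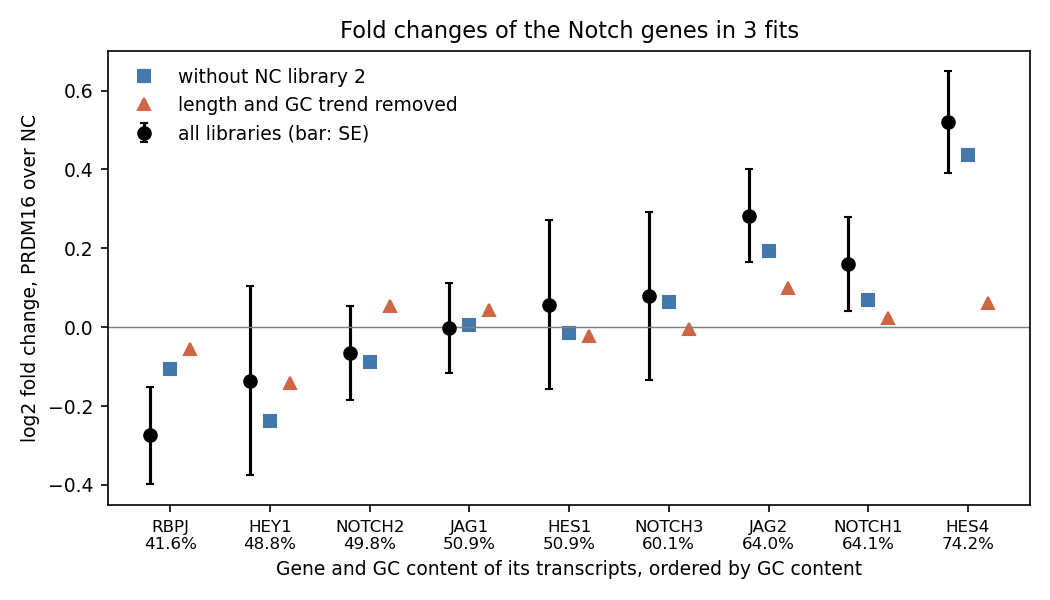
Log2 fold change (PRDM16 over NC) of the 9 genes, ordered by GC content, with all libraries (black, bar as SE), without NC library 2 (blue) and with the length and GC trend removed (orange). HES4 is at 0.52, 0.44 and 0.06 in the 3 fits, and RBPJ at -0.27, -0.11 and -0.06.

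Other tested genes had library profiles close to that of HES4. Of 7881 other tested genes with a mean of at least 20 CPM, 591 had a Pearson r of 0.95 or more with HES4 over the 6 libraries. The highest r belonged to C19orf25 (0.999), the diacylglycerol kinase DGKZ (0.999) and the zinc finger gene ZNF687 (0.998), with GC contents of 64.7%, 63.5% and 59.9%. Among the members, JAG2 had the highest r with HES4 (0.913) and RBPJ the lowest (-0.782).

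The rest of the pathway was read from 68 further genes, grouped by role. Of these, 58 passed the count filter, with 60 listings since MAML1 and DTX2 are listed at 2 places that both passed. In edgeR 0 of the 60 passed over all genes, DESeq2 and limma-voom called 0, and 13 had an unadjusted p under 0.05 (6 higher, 7 lower), beside 16.0% of all genes. This count was 25 without NC library 1 (26.6% of all genes), 3 without NC library 2 (7.30%), 5 without PRDM16 library 1 (6.15%), 8 without PRDM16 library 2 (8.97%) and 2 with the length and GC trend removed (6.55%). Of the 60, 30 had a positive log2 fold change, beside 46.9% of all genes, and the median was 0.0046. The groups did not overlap in 14, with 6 higher and 8 lower, against 12.2% and 8.77% of all genes. Values of single genes are given as measured.

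Other receptors and ligands were scarce. NOTCH4 had at most 1 count per listing and library, DLK1 had 0 counts in every library, and the ligand genes DLL4 and DNER had at most 14 and 4. DLL3, a ligand that acts within the cell and is known for blocking Notch there, had the smallest p of the list. It stood at 3.26, 2.85 and 3.12 CPM with NC and at 5.26, 4.99 and 3.54 with PRDM16, without overlap (log2 fold change 0.57 ± 0.20 SE, edgeR adjusted p = 0.288, and 0.24 with the length and GC trend removed). DLK2, a non-canonical ligand relative, went from 7.54 ± 1.40 to 8.61 ± 0.936 CPM (SD, n = 3), a log2 fold change of 0.19 that was 0.06 without NC library 2.

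Genes that ready receptors and ligands were divided in the sign of their fold changes. Of 9 sugar transferases listed, 7 passed the count filter, as did 4 of 4 ligand ubiquitin ligases. POFUT1, which adds the fucose that ligand binding needs, stood at 24.9 FPKM over all libraries, and RFNG, a Fringe enzyme that extends this sugar, led the group at 52.0. RFNG went from 88.7 ± 15.4 to 108 ± 11.2 CPM (SD, n = 3; edgeR adjusted p = 0.303), and EOGT, which adds N-acetylglucosamine to EGF repeats, from 18.1 ± 2.51 to 14.7 ± 0.987 (edgeR adjusted p = 0.303). Of the ubiquitin ligases that make a ligand active by its uptake, MIB2 (68.8% GC) went from 78.8 ± 10.8 to 96.7 ± 10.7 CPM and MIB1 (40.6% GC) from 68.5 ± 16.0 to 54.5 ± 4.04. With the trend removed the log2 fold changes of MIB2 and MIB1 were 0.08 and -0.05, against 0.29 and -0.33, and that of MIB1 was -0.12 without NC library 2.

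The cutting enzymes were among the most abundant of the pathway. APH1A, a gamma-secretase subunit, led at 101 ± 9.92 FPKM (SD, n = 6), followed by the subunits NCSTN at 69.3 and PSENEN at 39.3. APH1A went from 270 ± 26.8 to 314 ± 32.4 CPM (SD, n = 3). PSEN2, 1 of the 2 catalytic subunits, went from 22.3 ± 1.30 to 26.6 ± 3.87 CPM without overlap (log2 fold change 0.25, 0.20 with the trend removed and 0.13 without PRDM16 library 1, its highest). ADAM10, which makes the ligand-induced cut, stood at 73.0, 107 and 72.0 CPM with NC and at 63.6, 64.1 and 71.5 with PRDM16. The groups did not overlap and NC library 2 was the highest. The log2 fold change of ADAM10 was -0.34 ± 0.14 (SE), -0.12 without that library and -0.08 with the trend removed (edgeR adjusted p = 0.298 in the full comparison).

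In the nuclear complex, 6 of 9 listings of coactivators and 10 of 14 corepressors had negative log2 fold changes, as did 53.1% of all genes, and 0 of either passed in edgeR. MAML1, a Mastermind coactivator, had a mean of 2.43 ± 0.567 CPM in the NC libraries and of 1.58 ± 0.221 in the others (SD, n = 3), without overlap. Its difference was -0.62 ± 0.24 (log2, SE), and -0.65 with the trend removed (edgeR adjusted p = 0.298 in the full comparison). It is also listed on a scaffold, with 46 to 112 counts per library there against 32 to 73 at the first place. The scaffold listing had -0.24 ± 0.27 with overlapping groups (edgeR adjusted p = 0.616). With both places summed the value was -0.39 ± 0.18 (edgeR adjusted p = 0.282). MAML2 went from 31.1 ± 3.44 to 24.4 ± 3.56 CPM without overlap (-0.35, and -0.19 with the trend removed). The acetyltransferase KAT2A and the splicing and transcription cofactor SNW1 had the highest means of the coactivators, at 27.5 and 27.0 FPKM, with SNW1 the higher in 2 of 3 NC libraries. KAT2A went from 85.5 ± 5.45 to 96.5 ± 1.45 CPM. Of the corepressors, HDAC1, a histone deacetylase, led at 61.0 FPKM and went from 155 ± 18.0 to 151 ± 13.3 CPM. The RBPJ-bound corepressor SPEN had -0.22 and the deacetylase HDAC2 -0.21, against -0.0039 and 0.03 with the trend removed and -0.14 and -0.06 without NC library 2.

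Of the genes of receptor turnover, NUMB, an adaptor that limits Notch, led at 14.9 FPKM and went from 58.9 ± 5.57 to 51.6 ± 6.18 CPM (SD, n = 3). The kinase AAK1, which acts in endocytosis and binds NUMB, went from 61.1 ± 5.32 to 49.8 ± 2.66 CPM without overlap (log2 fold change -0.30 ± 0.11 SE, edgeR adjusted p = 0.298, and -0.17 with the trend removed). DTX2-2, a scaffold listing of a Deltex ubiquitin ligase, stood at 1.78, 1.60 and 1.30 CPM with NC and at 3.44, 1.47 and 3.99 with PRDM16 (0.93 ± 0.32, edgeR adjusted p = 0.297). PRDM16 library 2 lay within the NC range, and without it DTX2-2 passed at 1.26 (edgeR adjusted p = 0.00112). With both listings of DTX2 summed the value was 0.33 ± 0.13 (edgeR adjusted p = 0.261).

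Of the other HES and HEY genes 4 were tested, 4 had positive log2 fold changes, where 46.9% of all genes did, and 0 passed in edgeR. With the trend removed 2 of the 4 were negative, HES2 at -0.02 and HES7 at -0.17. HES6, which antagonises HES1, was the most abundant at 15.7 FPKM. It stood at 22.1, 16.0 and 16.2 CPM with NC and at 32.4, 21.8 and 21.5 with PRDM16, with NC library 1 above PRDM16 libraries 2 and 3 (0.47 ± 0.17 SE, edgeR adjusted p = 0.298). HES6 has a GC content of 70.1%, and its value was 0.05 with the trend removed and 0.26 without PRDM16 library 1. HEYL had 13 to 36 counts per library (0.47 ± 0.30, edgeR adjusted p = 0.387).

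**Figure D4:**
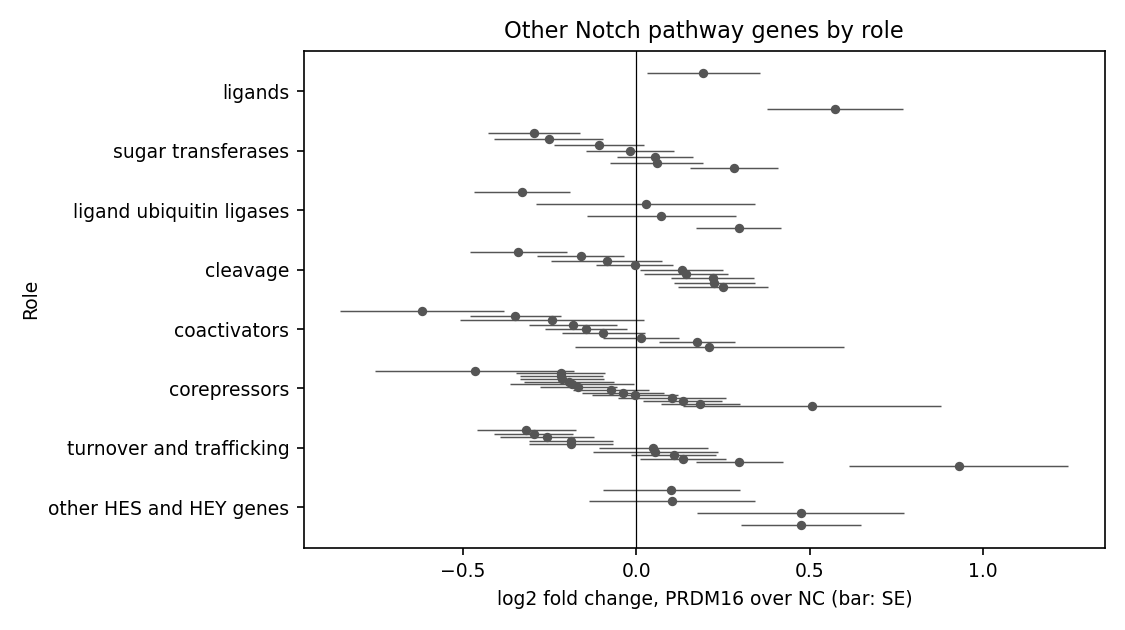
Log2 fold change (PRDM16 over NC, bar as SE) of 60 listings of other Notch pathway genes by role. Of the 60, 0 passed the adjusted test in edgeR, and the point farthest right is DTX2-2 at 0.93.

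**Figure D5:**
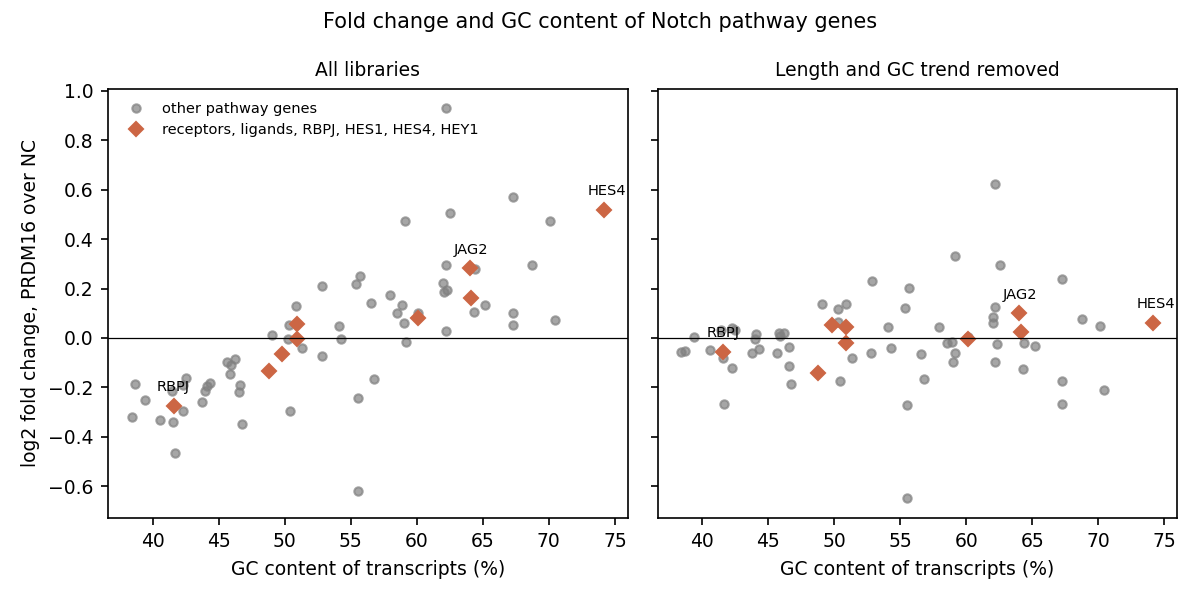
GC content of transcripts (percent) against log2 fold change for the 9 receptors, ligands, RBPJ and targets (orange) and 60 other pathway listings (grey), with all libraries (left) and with the length and GC trend removed (right). On the left HES4 is at 0.52 and RBPJ at -0.27, and on the right at 0.06 and -0.06.

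The libraries held between 20147135 and 41280350 counts. PRDM16 itself had 0 counts in each NC library and 11, 18 and 24 in the PRDM16 libraries. Its level in the PRDM16 libraries was low, at 0.573, 0.646 and 0.573 CPM, with a mean of 0.0672 ± 0.00464 FPKM (SD, n = 3). Of 8 podocyte markers, 3 (NPHS1, WT1 and PTPRO) had at most 4 counts in every library, and 3 (PODXL, CD2AP, SYNPO) were at 1 FPKM or more. The podocyte list summed to 53.9 to 70.6 FPKM with NC and 45.2 to 51.4 with PRDM16, and 4 parietal epithelium markers to 271 to 287 and 227 to 265. These sums rest mostly on single genes. CD2AP went from 36.1 ± 8.90 to 27.0 ± 3.27 FPKM (SD, n = 3), PODXL from 20.7 to 18.5 and SYNPO from 2.69 to 2.83. CD2AP was at 32.2, 46.2 and 29.8 FPKM in NC libraries 1, 2 and 3. In PRDM16 libraries 1, 2 and 3 it was at 26.9, 23.8 and 30.3, so the groups overlapped. PODXL overlapped in CPM, with NC library 1 at 111 and PRDM16 library 1 at 119. CLDN1 went from 171 ± 12.8 to 149 ± 10.1 FPKM, CD24 from 39.8 to 35.0, PAX2 from 6.53 to 6.23 and PAX8 from 60.0 to 59.9. A list of 3 leukocyte markers summed to 82.4 to 94.6 and 101 to 105 FPKM, nearly all of it the lysosomal gene CD68, with CD3E at 0 counts. Lists of proximal tubule, distal tubule, endothelial and mesangial markers were at or below 4.69 FPKM in every library. In bulk samples fewer cells of a type and less RNA per cell cannot be told apart, and the part of these markers in the Notch values was not tested.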

How the data were processed

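Per the file headers, the authors deposited 1 table per library with raw read counts, TPM and FPKM per gene. Coordinates are on hg38, which the submitters' processing notes name. Aligner, counter, strand setting and annotation: not given in the sources used here. Lines of 7 genes were broken and were rejoined. The FPKM values gave back each library total and the deposited TPM summed to 1000000, as checked. No 2 libraries lay within sampling noise (chi-square per degree of freedom at least 8.37).

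Counts entered edgeR 4.0.16 and its quasi-likelihood test (R 4.3.3, TMM factors, robust, default filter with a minimum count of 10), PRDM16 against NC over all 15381 genes that passed the filter, with Benjamini-Hochberg adjustment and a threshold of 0.05. The fit was run on simulated counts of 15224 genes, 200 of them changed 2-fold, where it recovered 99% with 5 false calls. The simulated counts held no GC trend and no smaller folds, so this does not bear on the differences described here. DESeq2 1.42.0 and limma-voom (limma 3.58.1) were alternatives, as were other factors, no filter, a replicate block, summed listings, single libraries left out, and offsets from splines (5 degrees of freedom) on length and GC content. GC content was the median over GENCODE 29 transcripts of a gene name, found for 90.3% of tested genes. Offsets combined with leaving out NC library 2 were added after seeing the data. A standard error is the log2 fold change divided by the root of F. CPM values use TMM factors.

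Members and gene lists were chosen with earlier results of these data known. Part of the podocyte marker list is not reported here. All members were named, and of the other pathway genes any that passed, the 2 with the smallest p and the 1 with the highest FPKM in each role; POFUT1, SNW1, HES2, HES7, NCSTN, PSENEN, NOTCH4, DLK1, DLL4, DNER, HES5 and HEY2 were named after their values were seen. Promoter sequences are from RefSeq (GRCh38.p14).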

Additional observations from a re-analysis of the deposited data

How the results depend on the processing

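Over all genes 10 passed in edgeR, against 41 with DESeq2, 4 with limma-voom, 107 with no count filter, 18 with listings summed, 5 with the length and GC offsets and 4 with the offsets and the replicate block, and 7 to 173 when single libraries were left out (173 without NC library 3, 59 without PRDM16 library 2, 20 without PRDM16 library 1). The cause of these differences was not tested. Of the members 0 passed, and of the other pathway genes 0, except 1 each with no count filter (HES4 and DTX2-2) and 0 to 1 each when single libraries were left out (the same genes, without PRDM16 library 2). With the replicate block 10 genes passed over all genes, 0 of them a member or other pathway gene. The labels do not say that same-numbered libraries share a culture, so the numbers were not used as pairs in the main fit. Same-numbered libraries had correlations of 0.0945, -0.104 and -0.131 between their deviations, and differently numbered ones -0.0922 to 0.204. These values do not show whether the libraries were paired. Signs turned for DLK2 with the offsets (-0.024, -0.023 with the block, and -0.099 without NC library 2), for RFNG (-0.0185, and -0.0141 with the block), for HDAC2 (0.0335, 0.0336 with the block, and 0.0460 without NC library 2), and for HDAC1 when NC library 3 or PRDM16 library 3 was left out (-0.10 to 0.061 over the 6 single libraries left out). HES4 and JAG2 kept a positive value in each of 15 alternatives (0.05 to 0.66 and 0.05 to 0.34) and RBPJ a negative one (-0.38 to -0.02). HES1, HEY1 and NOTCH3, with under 120 counts in each library, had standard errors of 0.21 to 0.24 (log2), against 0.11 to 0.13 for the other 6 members tested.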
